A study of Drosophila melanogaster with 39 samples.

Results

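The genes described here are those that hold chromosomes together in male meiosis of Drosophila melanogaster: tef, snm, uno, mod(mdg4), ord, sunn and mei-S332. They were chosen by name, from a list of 8 names, and 7 of them have an entry among the 13659 genes of each expression table. The gene snm is listed there under its other symbol, SA-2. The remaining name, mnm, denotes a protein isoform of mod(mdg4) with no entry of its own, so its transcript could not be separated from the other products of that locus.

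Male fruit flies carry out meiosis without crossing over and without a synaptonemal complex, the protein scaffold that joins homologous chromosomes in most other animals. Their homologs are held together instead by a conjunction complex that contains Snm, Mnm and Uno, and that Tef recruits to the autosomes. Sister chromatids are held by cohesion that needs Ord and Sunn, and Mei-S332, a member of the shugoshin family, protects this cohesion at centromeres until the second division.

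Testis RNA came from flies 1 to 3 days old in which a testis paralog of a subunit of the PAF1 complex was mutated; the PAF1 complex travels with elongating RNA polymerase II, and the testis form is called tPAF. Whole testes gave 21 polyA libraries in 7 groups of 3. The controls were the stocks w1118 and w1118 iso, and the mutants were transheterozygotes given as Cdc73L TH1, Ctr9L TH2, Leo1L TH1, Leo1L TH1 from the inverted cross, and Paf1L TH2. The sorted cells came from testes in which the endogenous Cdc73L carried a GFP tag, controls included, which the labels give as w1118, and the mutants were homozygous for Leo1L FS1 or Paf1L FS1. GFP-positive spermatocytes, the germ cells that grow and then enter meiosis, were collected at a stated purity of at least 85%, with each group sorted 3 times. For every sort, a library depleted of ribosomal RNA and one that was not were merged by the authors into 1 column, and the 9 columns are the replicates used. For whole testes the labels do not say whether the replicates came from separate crosses or dissections, so the p-values there measure the spread between libraries, which may be technical.

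The values are the authors' GeTMM signal, which behaves as reads scaled to similar but unequal totals per library, without division by gene length. The totals were 947166 to 1.09e+06 in whole testis and 950706 to 1.05e+06 in sorted columns. Approximate depth was 8.67 to 12.8 M reads (M, 1e+06) in whole testis and 7.95 to 20.8 M in sorted columns. CG10887 (the gene of Leo1L), CG12674 (Paf1L) and CG9899 (Ctr9L) were lowest in their own mutants: 15.5 to 18.2 in both Leo1L crosses against 53.7 to 69.98 in the controls for CG10887, 2.84 to 6.67 against 47.6 to 59.7 for CG12674, and 9.91 to 10.7 against 107 to 127 for CG9899. No such check was made for Cdc73L. In sorted controls all 9 spermatocyte markers had a mean signal of at least 1, with a summed signal of 634 to 691, while 6 muscle markers summed to 13.2 to 15.9, 3 hub markers to 28.2 to 36.6, 3 cyst markers to 46.6 to 58.96 and 4 early germ cell markers to 208 to 230. The 10 spermatid markers summed to 1891 to 2419 in the same columns, so transcripts used as spermatid markers were abundant in the sorted cells too. In testis controls, which were normalized separately, the sums were 614 to 704 for spermatocyte, 317 to 462 for muscle and 72.4 to 102 for hub markers. They were 116 to 137 for cyst, 157 to 210 for early germ cell and 1743 to 2293 for spermatid markers. As a mean of log2(signal + 1), the spermatocyte markers were lower in sorted controls (4.92 to 5.06) than in testis controls (5.75 to 5.89). Accessory gland markers were low in 4 testis libraries, namely Cdc73L replicates 1 and 2, inverted Leo1L replicate 3 and Paf1L replicate 1.

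By the Ensembl annotation of BDGP6.54, all 7 genes are protein-coding. On chromosome 2R lie uno (8096792 to 8098484), tef (17054546 to 17056835), mei-S332 (22122101 to 22124566) and ord (23271257 to 23275536). On chromosome 3L lie snm (1434336 to 1437872) and sunn (11728348 to 11732016), and mod(mdg4) is on 3R (21350846 to 21377401) with 22 annotated transcripts. Exons of uno overlap those of sand, and exons of mei-S332 overlap those of Vrp1, each on the opposite strand. Because no strand setting for counting is given in the sources used here, reads of such partners cannot be told apart. The signal of sand was low, 3.76 to 5.11 in the 6 testis controls, and that of Vrp1 was 181 to 298. The gene snm lies within Ptp61F on the same strand without shared exons, and mod(mdg4) overlaps the pre-mod(mdg4) entries, which feed its trans-spliced products. The 22 pre-mod(mdg4) entries in the tables summed to 29.7 to 42.3 in testis libraries.

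The genes differed widely in level. Per kilobase of mean annotated transcript length, the signal in the 6 testis controls was 116 ± 16.3 for uno, 72.6 ± 3.42 for mei-S332, 36.5 ± 2.04 for mod(mdg4), 12.5 ± 1.59 for ord, 8.64 ± 0.440 for snm, 1.65 ± 0.176 for tef and 1.42 ± 0.417 for sunn (SD, n = 6). Neighbours in this order were apart in all 6 libraries except tef and sunn, whose ranges overlapped. With the total length of all exons in place of the mean transcript, mod(mdg4) came to 5.66, below ord and snm, because its many alternative exons add length. In sorted controls the order was the same, but mod(mdg4) at 16.3 and ord at 15.5 per kilobase were not apart, nor were tef and sunn. Read numbers followed these levels: about 1280 to 2176 reads of uno per testis library, but 22.6 to 51.0 of tef and 19.9 to 61.5 of sunn, and in sorted columns as few as 5.65 reads of tef and 7.71 of sunn.

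**Figure D1:**
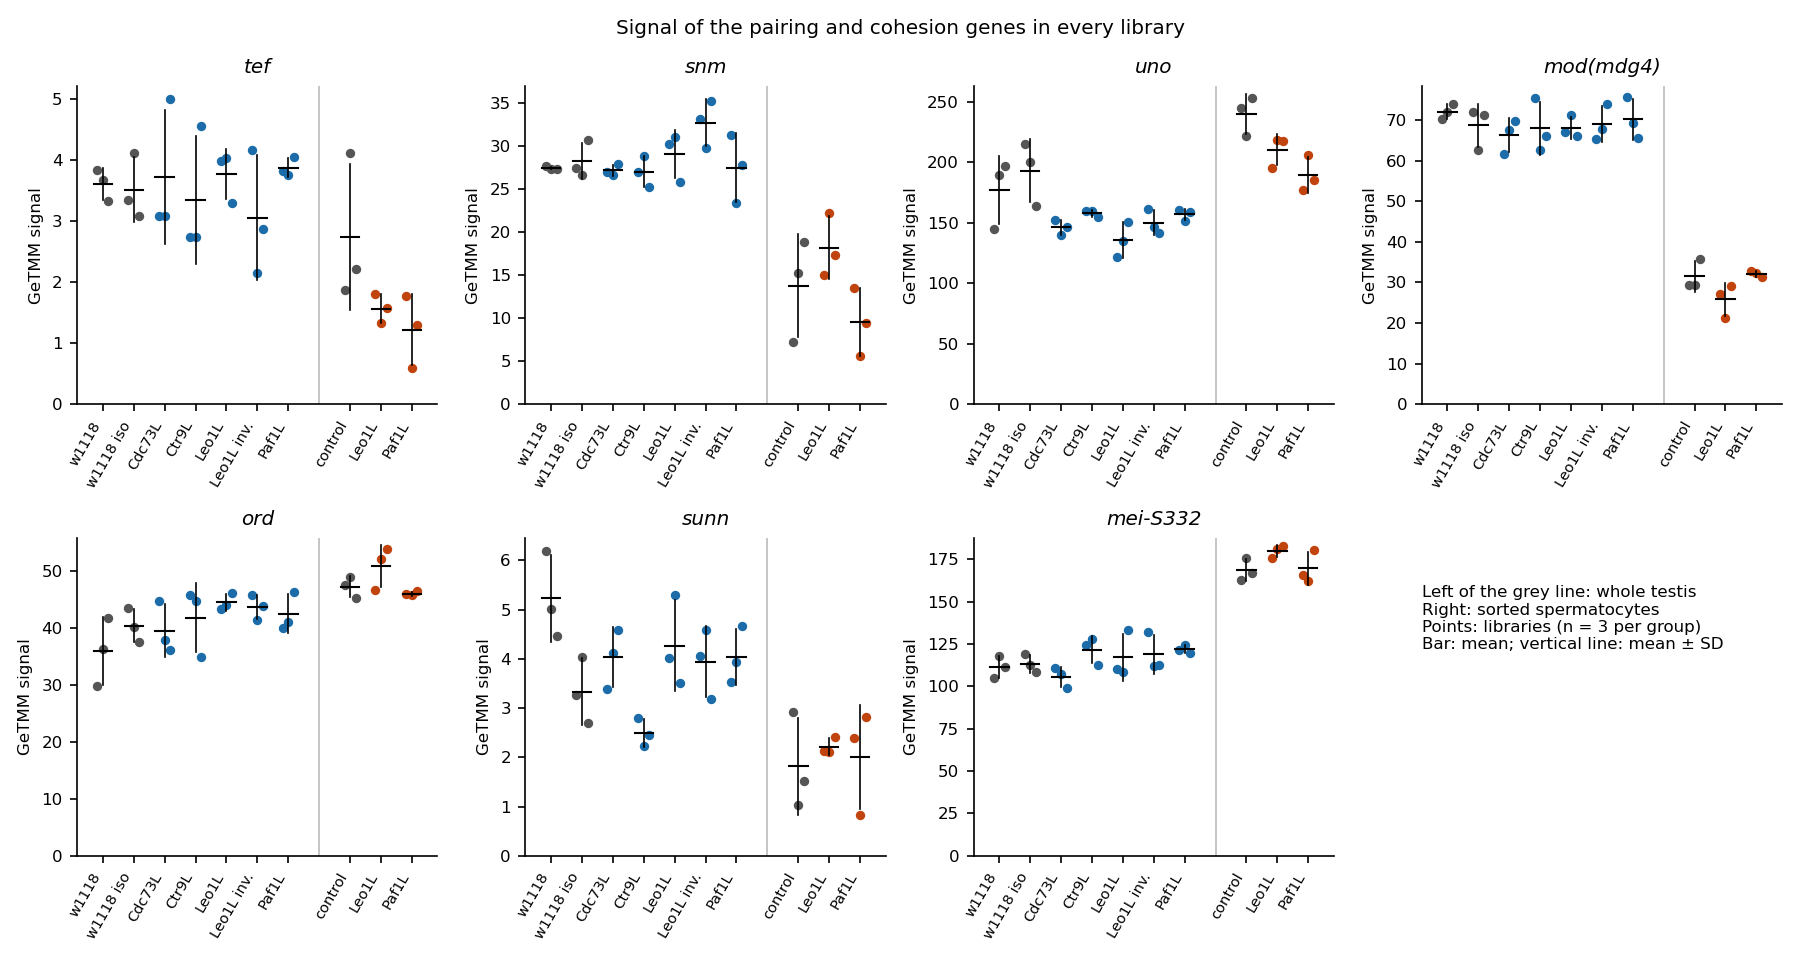
GeTMM signal (y axis, linear, from 0) of the 7 genes in every library, by group (x axis); points are libraries or sorted columns, horizontal bars group means and vertical lines the mean ± SD (n = 3). The levels of uno in the 5 mutant testis groups, 122 to 162, lie mostly below those of the controls, 145 to 215, while tef and sunn stay below 7.

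Of these genes uno fell in 3 testis mutants and in sorted Paf1L cells, sunn fell in Ctr9L testis, and tef, snm, mod(mdg4), ord and mei-S332 were called in no comparison. A linear model (limma) was fitted on log2(signal + 1) over all genes, and a gene was called at a Benjamini-Hochberg adjusted p under 0.05. In whole testis the called genes were uno alone in Cdc73L, Leo1L and inverted Leo1L mutants, sunn alone in Ctr9L mutants, and none in Paf1L mutants. The share of all tested genes that were called was 23% for Cdc73L, 22.8% for Ctr9L, 30.4% for Leo1L and 31.7% for inverted Leo1L, against 1 of 7 here each time. For Paf1L it was 28.9% against 0 of 7, where 1 gene (uno) had an unadjusted p under 0.05. In sorted spermatocytes uno was called in Paf1L mutants, 1 of 7 against 25.4% of tested genes. In sorted Leo1L mutants 0 of 7 were called against 16.5%, with 1 (uno) at an unadjusted p under 0.05. The median log2 fold change of the 7 genes was between -0.05 and 0.05 in each testis mutant, beside a median between -0.00 and 0.03 over all tested genes.

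**Figure D2:**
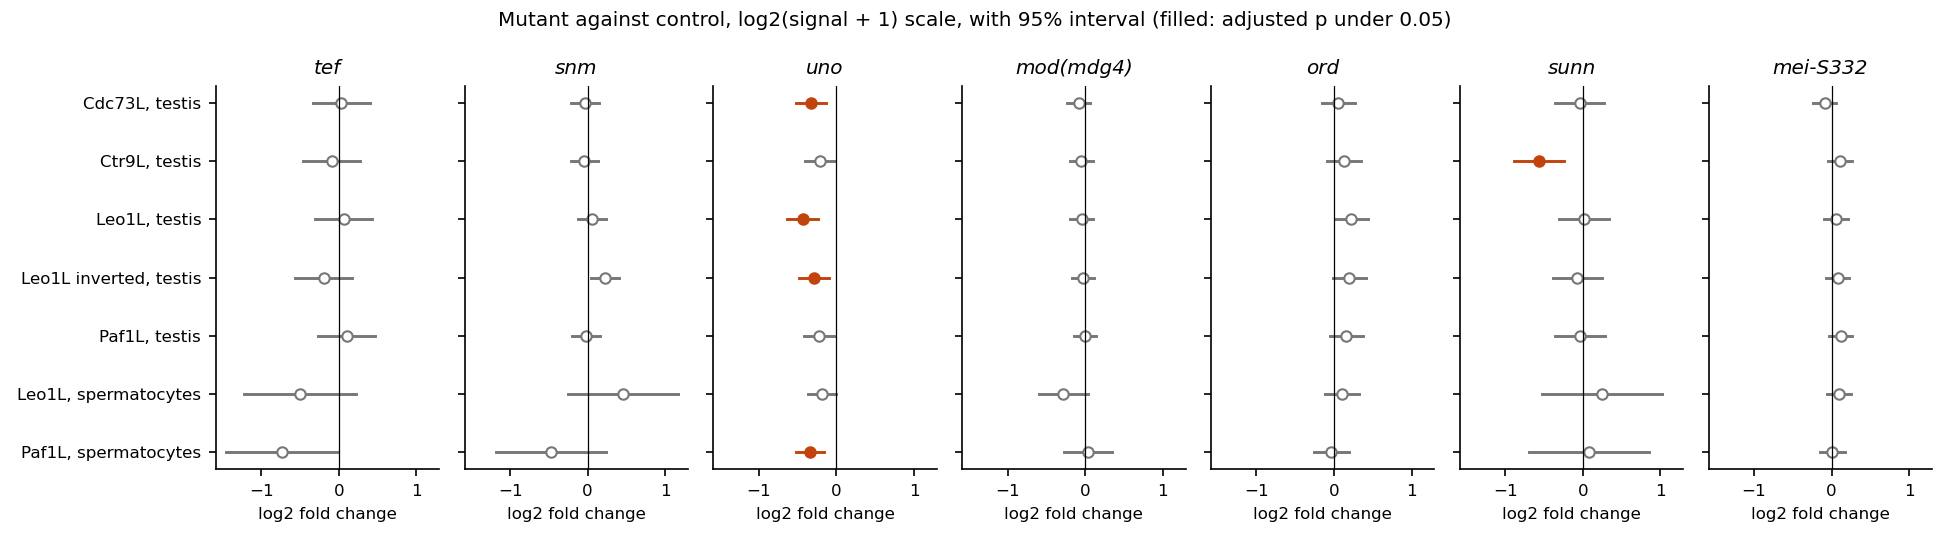
Log2 fold change of each gene (x axis, log2(signal + 1) scale) in the 7 mutant groups against their controls (y axis), with 95% intervals; filled points passed an adjusted p of 0.05 (limma). Filled points are uno in 3 testis mutants and in sorted Paf1L spermatocytes, and sunn in Ctr9L testis; the intervals of tef, snm and sunn in sorted cells span more than 1.

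The conjunction gene uno, whose name (univalents only) describes mutants with unpaired homologs, encodes the subunit that separase cuts to release homologs. Its signal was 145, 189.8 and 197 in the w1118 libraries and 215, 200.1 and 164 in w1118 iso. It was 122, 135 and 151 in Leo1L mutants, 162, 147 and 142 in the inverted cross, and 152, 139.9 and 147 in Cdc73L mutants. Of the 6 control libraries 5 lay above every Leo1L, inverted Leo1L and Cdc73L library, and w1118 replicate 1, at 145, lay among the mutants, so the groups overlapped. The log2 fold change was -0.44 (SE 0.09) in Leo1L, -0.29 (SE 0.09) in the inverted cross and -0.33 (SE 0.09) in Cdc73L mutants, with limma adjusted p of 0.00156, 0.0231 and 0.0184. These are ratios of 0.739, 0.817 and 0.798 to the control.

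In Ctr9L mutants uno was 159.6, 159.5 and 155, and in Paf1L mutants 160.4, 152 and 159. These 6 libraries also lay below 5 of the 6 controls and above w1118 replicate 1, yet neither group passed: the log2 fold changes were -0.22 (95% interval -0.41 to -0.02) and -0.22 (-0.42 to -0.03), with limma adjusted p of 0.104 and 0.0796. Without w1118 replicate 1 the changes were -0.28 in Ctr9L and -0.29 in Paf1L, and without w1118 iso replicate 3 they were -0.27 and -0.28; all 4 then passed. The direct contrasts between mutants did not separate them: uno differed by 0.15 (-0.08 to 0.37) between the Leo1L crosses, by 0.21 (-0.01 to 0.44) between Paf1L and Leo1L, and by 0.22 (-0.01 to 0.45) between Ctr9L and Leo1L, with limma adjusted p of 0.958, 0.54 and 0.278.

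The fall of uno in Cdc73L did not pass without Cdc73L replicate 2 (-0.29) or 3 (-0.33), nor against w1118 alone (-0.26). Leaving out the 4 libraries low in accessory gland markers, an alternative chosen after seeing the data, kept only Cdc73L replicate 3. The fold change was then -0.32. In the inverted cross it did not pass without inverted replicate 2 (-0.28) or 3 (-0.25) or against w1118 alone (-0.23). In Leo1L it passed with any single library left out, between -0.51 and -0.36.

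In sorted spermatocytes uno was 245, 222 and 253 in the controls, 195, 218.4 and 217.9 in Leo1L mutants, and 177, 206.5 and 185 in Paf1L mutants. Every mutant column was below every control column. The log2 fold change was -0.34 (SE 0.08) in Paf1L mutants, a ratio of 0.791 (limma adjusted p = 0.0102), and it passed with any single column left out, between -0.40 and -0.29. In Leo1L mutants it was -0.19 (95% interval -0.37 to -0.01, limma adjusted p = 0.158), and the direct contrast of Paf1L with Leo1L was -0.15 (-0.33 to 0.03, limma adjusted p = 0.44). For the overlapping gene sand, the sorted columns gave 4.91 ± 1.49 in controls, 8.55 ± 0.783 in Leo1L and 10.1 ± 1.14 in Paf1L (SD, n = 3).

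Spermatid markers were lower together with uno in several mutants, but not in each library. Their mean log2 level was 7.00 to 7.40 in the testis controls, 6.87 to 7.02 in Leo1L, 6.86 to 7.21 in inverted Leo1L, 6.84 to 7.11 in Cdc73L and 6.96 to 7.01 in Paf1L mutants. Ctr9L libraries, at 7.14 to 7.22, lay inside the control range. Of the 10 markers 7 were lowered in Leo1L, inverted Leo1L and Paf1L mutants, 4 in Cdc73L and 2 in Ctr9L (limma, adjusted p under 0.05). Among the 6 control libraries the lowest for uno, w1118 replicate 1, was also the lowest for the spermatid markers (7.00), and the highest for uno, w1118 iso replicate 1, was the highest for them (7.40). The same libraries also had the lowest (947166) and the highest (1.09e+06) total signal of the 6. With the marker level of each library as a covariate, also chosen after seeing the data, the fold change of uno was -0.19 in Leo1L, -0.11 in the inverted cross, -0.14 in Cdc73L and -0.03 in Paf1L mutants, none of which passed, whereas in Ctr9L it was -0.19 and passed (limma adjusted p = 0.027). Because the marker level itself differed between most mutants and the controls, this fit cannot separate it from the genotype. Nor is that level a measure of spermatid number, since the same transcripts summed to 1891 to 2419 in sorted control spermatocytes. In sorted Paf1L mutants, where 4 of 10 spermatid markers were lowered, uno fell by 0.32 with the same covariate and passed (limma adjusted p = 0.0344). With the accessory gland marker level as covariate uno did not pass in sorted Paf1L (-0.30, limma adjusted p = 0.0763) or in Cdc73L testis (-0.33, 0.0745). In sorted cells only 3 of these 9 markers were high enough to be tested. Their mean log2 level was 0.57 to 0.68 in sorted Paf1L and 0.85 to 2.37 in sorted controls. In Cdc73L testis it was 1.22 to 3.87, below the 4.24 to 6.05 of the testis controls. In both cases the covariate cannot be separated from the genotype. In whole testis, fewer cells of a type and less RNA per cell cannot be told apart.

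**Figure D3:**
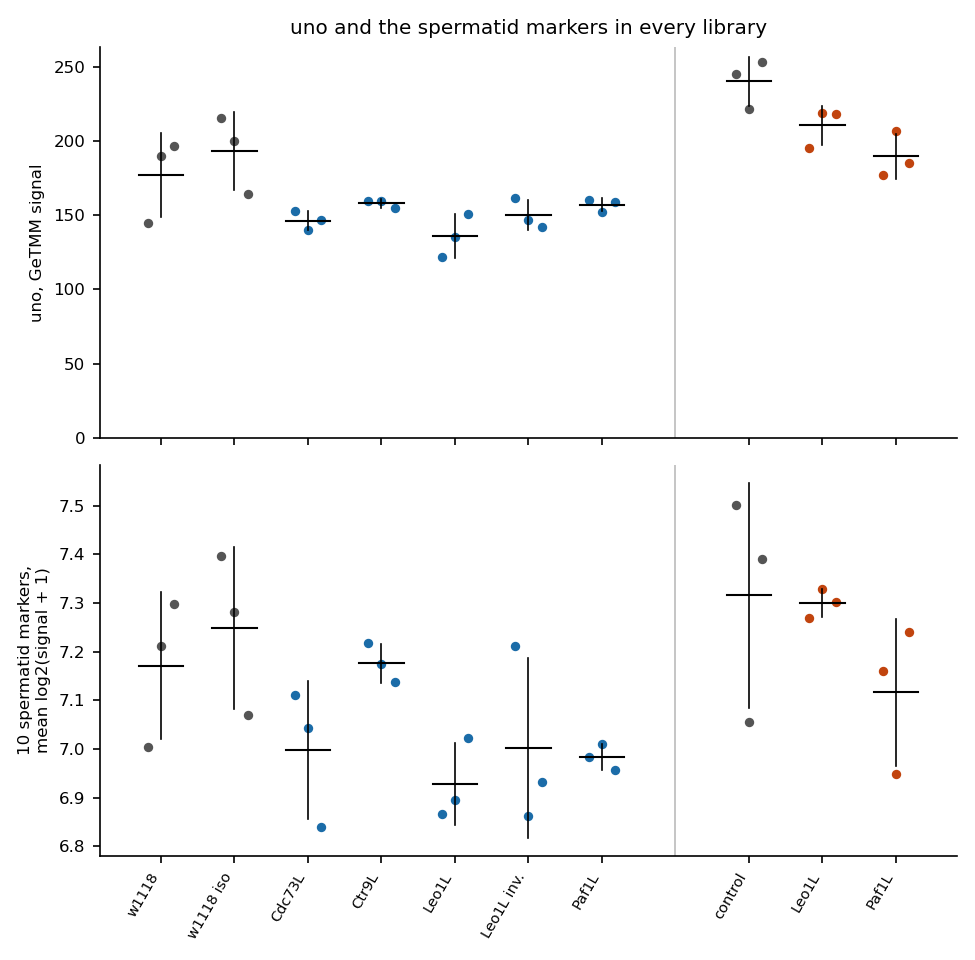
Signal of uno (upper panel, linear from 0) and mean log2(signal + 1) of the 10 spermatid markers (lower panel, axis not from 0) in every library, by group; bars are means and vertical lines ± SD (n = 3). The library lowest for uno is also lowest for the markers in 4 of 7 testis groups and 2 of 3 sorted groups, but in Paf1L testis it is the highest for them (7.01) and in sorted Paf1L the column highest for uno (206.5) is the lowest for them (6.95). Sorted Leo1L columns are below the controls for uno (195 to 218.4) while their markers (7.27 to 7.33) lie within the control range.

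The gene snm, a relative of the cohesin subunit SA that serves in the conjunction complex, was called in no whole testis comparison. It was 26.6 to 30.6 in the 6 controls, with a median of 27.4, and 23.4 to 31.3 in the Cdc73L, Ctr9L, Leo1L and Paf1L libraries. The highest values were in the inverted Leo1L cross, at 33.1, 29.8 and 35.2, of which the second lay within the control range. Against the controls this was a log2 fold change of 0.22 (95% interval 0.04 to 0.40) and just missed the threshold (limma adjusted p = 0.0535). It passed without w1118 iso replicate 3 (0.25) or inverted replicate 2 (0.29), and it came to 0.21 without inverted replicate 1 and 0.17 without inverted replicate 3 (limma adjusted p = 0.13 and 0.229).

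In sorted spermatocytes snm varied more between columns. It was 7.25, 15.2 and 18.9 in controls, 14.9, 22.2 and 17.4 in Leo1L, and 13.5, 5.62 and 9.42 in Paf1L mutants. Both mutants overlapped the controls, but every Paf1L column was below every Leo1L column. The contrast of Paf1L with Leo1L was -0.92 (95% interval -1.63 to -0.21) with a limma adjusted p of 0.293, and against controls the values were 0.45 (-0.26 to 1.16) in Leo1L and -0.47 (-1.18 to 0.24) in Paf1L mutants.

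The gene tef, whose protein is needed for autosomes but not for the sex chromosomes to stay paired, was among the 2 lowest of the 7 genes. In whole testis it was 3.09 to 4.12 in the controls and 2.15 to 4.999 over the 15 mutant libraries, and no group stood apart. Its log2 fold changes ran from -0.20 in the inverted Leo1L cross to 0.10 in Paf1L mutants, with an SE of 0.17. In sorted cells it was 1.88, 4.11 and 2.23 in controls, 1.80, 1.33 and 1.58 in Leo1L, and 1.77, 0.602 and 1.30 in Paf1L mutants. All 6 mutant columns lay below the lowest control, by as little as 1.80 against 1.88. The differences of -0.50 (95% interval -1.22 to 0.22) and -0.74 (-1.46 to -0.02) did not pass (limma adjusted p = 0.363 and 0.125), on 5.65 to 44.8 reads per column. In Paf1L the fold change ran from -1.13 to -0.31 over 15 alternative fits. It passed in 1 of them, with quantile normalization (limma adjusted p = 0.0285).

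The locus mod(mdg4), a chromatin and insulator gene with many isoforms, among them the conjunction protein Mnm, was called in no whole testis comparison. Its signal was 62.7 to 73.8 in the controls and 61.6 to 75.6 over the mutant libraries, and its log2 fold changes were all between -0.08 and 0.00, with 95% intervals inside -0.23 to 0.14. These values sum all isoforms, so a change of Mnm alone could not be seen in them. In sorted cells it was 29.3, 29.2 and 35.8 in controls, 27.1, 21.2 and 29.1 in Leo1L, and 32.8, 32.3 and 31.3 in Paf1L mutants. Leo1L columns lay just below the controls and below the Paf1L columns, and neither contrast passed: -0.28 (-0.60 to 0.03) against controls and 0.32 (0.00 to 0.63) for Paf1L against Leo1L, with limma adjusted p of 0.226 and 0.368. The summed pre-mod(mdg4) entries were 20.1 ± 2.55 in sorted controls, 17.96 ± 2.25 in Leo1L and 15.1 ± 2.04 in Paf1L (SD, n = 3).

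Of the cohesion genes, ord, which is needed for sister cohesion from before the first division, was 29.8 to 43.4 in the testis controls and 34.8 to 46.3 in the mutants. In Leo1L mutants it was 43.2, 43.9 and 46.1, where only the highest control, w1118 iso replicate 1 at 43.4, overlapped. There the log2 fold change was 0.22 (95% interval 0.01 to 0.44, limma adjusted p = 0.105), and it passed without w1118 replicate 3 (0.28) or after rescaling to one total (0.29). In sorted cells ord was 47.5, 48.9 and 45.2 in controls, 46.6, 51.97 and 53.9 in Leo1L, and 45.9, 45.7 and 46.4 in Paf1L mutants. The fold changes were 0.10 (-0.12 to 0.33) and -0.04 (-0.26 to 0.19).

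The gene sunn, a stromalin-related cohesion factor, fell in Ctr9L testis, a call that depended on the control stock. It was 6.19, 5.02 and 4.46 in w1118 and 3.26, 4.04 and 2.69 in w1118 iso. In Ctr9L mutants it was 2.79, 2.22 and 2.46, below all w1118 libraries and below all but the lowest w1118 iso library. Against the mean of both stocks its log2 fold change was -0.57 (SE 0.15, limma adjusted p = 0.0119), a ratio of 0.675 in signal + 1. The mean signal itself was 2.49 in Ctr9L and 4.28 in the controls. With a pseudocount of 0.1 the log2 fold change was -0.71. Against w1118 alone it was -0.83 and passed, and against w1118 iso alone it was -0.30 and did not (limma adjusted p = 0.26). It also did not pass without Ctr9L replicate 2 (-0.51). The stocks did not overlap, with a difference of -0.53 (95% interval -0.89 to -0.16) that did not pass over all genes (limma adjusted p = 0.0713).

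Set directly against other mutants, the log2 difference of sunn was -0.58 (-0.95 to -0.21) for Ctr9L minus Leo1L and -0.53 (-0.90 to -0.16) for Ctr9L minus Paf1L, with limma adjusted p of 0.0629 and 0.0993. In the other testis mutants its values, 3.18 to 5.29, lay within the span of the controls. Ctr9L testes also had all 6 muscle markers lowered, with a median log2 fold change of -0.64, as did the inverted Leo1L cross (6 of 6, -0.88), in which the fold change of sunn was -0.07 (-0.39 to 0.25). The part of muscle in the Ctr9L value was not tested. In sorted cells sunn was 2.92, 1.02 and 1.51 in controls, 2.13, 2.11 and 2.41 in Leo1L, and 2.39, 0.821 and 2.81 in Paf1L mutants, with all groups overlapping.

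The cohesion protector mei-S332 was called in no comparison. It was 105 to 119 in the testis controls and 98.95 to 133 in the mutants. Paf1L mutants, at 122, 124 and 119.7, lay above every control, which in that contrast held for 1 of the 7 genes and for 21.3% of all tested genes in either direction. On the log2 scale they were higher by 0.12 (95% interval -0.03 to 0.27, limma adjusted p = 0.245). Between mutants the widest gaps were of Cdc73L below Paf1L (-0.21, -0.38 to -0.03) and below Ctr9L (-0.20, -0.37 to -0.03), with limma adjusted p of 0.161 and 0.258. In sorted cells it was 163, 175 and 167 in controls, 176, 181 and 183 in Leo1L, and 166, 162 and 181 in Paf1L mutants. Leo1L columns lay just above the controls, by 0.09 (-0.06 to 0.25) on the log2 scale.

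Complete separation of the libraries of a mutant from those of its controls occurred for 0 of the 7 genes in Cdc73L, Ctr9L, Leo1L and inverted Leo1L testis, beside 15.3%, 18%, 21.9% and 20.6% of all tested genes, and for 0 of 7 between the Leo1L crosses, beside 10.9%. In sorted cells 3 columns are set against 3, where the testis mutants have 3 libraries against 6, so the shares of the tables cannot be compared. In sorted Leo1L, uno, tef and mod(mdg4) lay below and mei-S332 above every control column, 4 of 7 genes against 34.9% of all tested genes. In sorted Paf1L, uno and tef lay below, 2 of 7 against 38.5%. Between Paf1L and Leo1L columns 3 of 7 were apart (snm, ord and mod(mdg4)) against 20% of all, and 0 of 7 were called against 0.442%, with 2 (snm and mod(mdg4)) at an unadjusted p under 0.05.

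Between the control stocks 0 of the 7 genes were called, against 8.69% of all tested genes, with 1 (sunn) at an unadjusted p under 0.05, and 1 of 7 (sunn again) was apart against 20.5%. Between the 2 Leo1L crosses 0 of 7 were called, against 0.0366%, and 0 had an unadjusted p under 0.05. In the 6 contrasts among Cdc73L, Ctr9L, Leo1L and Paf1L testes 0 of the 7 passed. The shares of all tested genes called there were 6.29% (Cdc73L against Leo1L), 6.72% (Cdc73L, Paf1L), 0.265% (Cdc73L, Ctr9L), 5.28% (Ctr9L, Leo1L), 4.91% (Ctr9L, Paf1L) and 0.238% (Paf1L, Leo1L). Unadjusted p under 0.05 occurred for sunn in the 3 contrasts with Ctr9L and for mei-S332 in those of Cdc73L with Paf1L and with Ctr9L.

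Once the spermatid marker level of each library was held in the model, a setting chosen after seeing the data, ord and mei-S332 came out higher. The markers themselves were lowered in Leo1L, inverted Leo1L and Paf1L mutants, so this fit cannot separate their level from the genotype. The median of all tested genes was not computed with this covariate, so whether other genes moved likewise is not known. The log2 fold change of ord was then 0.45 in Leo1L, 0.37 in the inverted cross and 0.34 in Paf1L mutants (limma adjusted p = 0.0028, 0.00484 and 0.01). That of mei-S332 was 0.23, 0.21, 0.26 and, in Ctr9L, 0.13 (limma adjusted p = 0.0098, 0.00804, 0.00225 and 0.048). Without the covariate, and with the values as deposited and all libraries kept, neither gene was called in these groups. After rescaling to one total, ord passed in Leo1L (0.29) and inverted Leo1L (0.23) and mei-S332 in Paf1L (0.19), and the median of all tested genes was then 0.09, 0.03 and 0.07 in these contrasts.

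Other genes of chromosome cohesion and segregation were counted from 5 lists: mitotic cohesin and its regulators, separase and protection of cohesion, condensin with topoisomerase II, synaptonemal complex and recombination genes, and kinetochore and checkpoint genes. Of 54 tested in whole testis, 8 rose and 3 fell in Cdc73L mutants, 16 and 4 in Ctr9L, 13 and 2 in Leo1L, 19 and 2 in the inverted cross, and 10 and 2 in Paf1L. Called in either direction were 20.4%, 37.0%, 27.8%, 38.9% and 22.2% of the 54, beside 23%, 22.8%, 30.4%, 31.7% and 28.9% of all tested genes, so in Cdc73L, Leo1L and Paf1L the share in the lists was below that of all genes. The share that rose was 14.8%, 29.6%, 24.1%, 35.2% and 18.5%, beside 10.4%, 12%, 15.4%, 15.8% and 13.8% of all tested genes. Of 52 tested in sorted cells, 3 rose and 2 fell in Leo1L and 5 rose and 0 fell in Paf1L, which is 9.62% each, below the 16.5% and 25.4% of all tested genes. Over the 54 genes the median log2 fold change was between 0.08 and 0.17 in the testis mutants, beside -0.00 to 0.03 over all tested genes, and over the 52 it was 0.05 and 0.10 in sorted Leo1L and Paf1L cells beside 0.02 and 0.05.

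The condensin II subunit Cap-D3 rose most of these in spermatocytes. Its signal was 25.7 ± 5.14 in sorted controls, 59.97 ± 6.60 in Leo1L columns and 61.1 ± 5.48 in Paf1L columns (SD, n = 3), log2 fold changes of 1.20 and 1.23 (SE 0.14, limma adjusted p = 7.29e-05 and 4.58e-05). In testis Cap-D3 went from 11.9 ± 2.28 (n = 6) to 17.9, 18.2 and 19.3 in Leo1L, inverted Leo1L and Paf1L mutants (limma log2 fold changes of 0.56, 0.59 and 0.66), and it rose by 0.46 in Ctr9L. Its value in Cdc73L, 12.5 ± 0.261, did not pass.

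The synaptonemal complex gene corolla and the recombination gene mei-218, whose products act in female meiosis, were both detected in testis. The signal of corolla was 124 ± 9.81 (SD, n = 6) in the controls and rose in all 5 mutant groups, to between 154 (Cdc73L) and 193 (Paf1L), past the limma threshold each time. In sorted cells corolla was 188 ± 23.6 in controls, 218.7 ± 5.57 in Leo1L and 214 ± 12.0 in Paf1L (SD, n = 3), and neither difference passed (0.22 and 0.19, limma adjusted p = 0.112 and 0.144). The signal of mei-218 went from 367 ± 76.0 to 516 in Ctr9L, 538 in Leo1L, 548 in the inverted cross and 516 in Paf1L, and from 836 ± 45.6 to 1050 ± 40.0 and 1021 ± 16.6 in sorted Leo1L and Paf1L columns (limma log2 fold changes of 0.33 and 0.29). Its value in Cdc73L testis, 414 ± 29.8, did not pass (limma adjusted p = 0.308). The recombination gene rec, a relative of the replicative helicase subunits, rose in inverted Leo1L testis from 3.65 ± 0.844 (n = 6) to 5.94 ± 0.946 (n = 3), by 0.59 on the log2 scale (limma adjusted p = 0.0142).

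The gene vas, whose locus also encodes the cohesion protein Solo, rose in Leo1L (0.54) and inverted Leo1L (0.56) testis. It is also 1 of 4 markers used for early germ cells. The median log2 fold change of the 4 was 0.30 in Leo1L and 0.35 in inverted Leo1L. Of the 4, 1 (vas itself) rose and 1 fell in Leo1L, and 1 (vas) rose and 0 fell in inverted Leo1L. Their summed signal was 155 to 170 and 158 to 182 in these groups, not above the 157 to 210 of the controls. Their mean log2 level, which includes vas, was 4.53 to 4.67 in the libraries of both groups, above every control library at 4.22 to 4.52. It overlapped the controls in Cdc73L (4.44 to 4.71), Ctr9L (4.41 to 4.64) and Paf1L (4.46 to 4.64). The part of early germ cells in the rise of vas was not tested.

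Within the cohesin list, SA, the subunit to which snm is related, fell by 0.58 on the log2 scale in sorted Leo1L (37.0 ± 2.88 to 24.7 ± 5.09) and wapl, which releases cohesin, fell by 0.88 (14.2 ± 1.22 to 7.38 ± 1.97; limma adjusted p = 0.0188 and 0.0139). In testis SA was 18.9 ± 1.89 in w1118 but 7.24 ± 0.376 in w1118 iso, a difference of -1.27 (limma adjusted p = 0.000109). Its falls against both stocks together in inverted Leo1L (-0.51) and Paf1L mutants (-0.58) are set against that mean, while the mutant means, 8.24 and 7.70, were above that of w1118 iso. The sorted controls are labelled w1118, and the part of stock background in the fall of SA in sorted Leo1L was not tested. The securin gene pim, an inhibitor of separase, fell in Cdc73L testis from 37.0 ± 5.56 to 24.9 ± 3.84, by 0.55 on the log2 scale (limma adjusted p = 0.0028).

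Of the kinetochore genes, Spc105R, which links the outer kinetochore to the checkpoint, rose in Ctr9L testis from 20.4 ± 1.93 (n = 6) to 29.9 ± 3.06 (n = 3), by 0.53 on the log2 scale (limma adjusted p = 0.00104). Ndc80, which binds microtubules, rose in sorted Paf1L from 7.30 ± 2.18 to 12.96 ± 2.30 (n = 3 each), by 0.77 (limma adjusted p = 0.0263). The centromere factor cal1 rose in Ctr9L (0.46), inverted Leo1L (0.38), sorted Leo1L (0.43) and sorted Paf1L (0.34), and Incenp, of the chromosomal passenger complex, was called in none of the 7 mutant groups (-0.17 to 0.06). Among abundant genes of the other lists, the cohesin loader Nipped-B rose in Ctr9L (0.27), the condensin subunit Cap-G fell by 0.32 in Cdc73L, and the phosphatase subunit Pp2A-29B rose in Leo1L testis (0.15) and sorted Paf1L (0.21). In sorted Leo1L, Pp2A-29B was higher by 0.22 and just missed the threshold (limma adjusted p = 0.053). Between w1118 iso and w1118 it differed by -0.15 (limma adjusted p = 0.0871). The kinase gene polo (-0.06 to 0.17) and the condensin gene barr (-0.03 to 0.14) were called in none of the 7 groups. The cohesin gene vtd (-0.15 to 0.10) was called in none of the 5 testis mutants, and the acetyltransferase gene eco did not pass in sorted Paf1L (0.27).

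**Figure D4:**
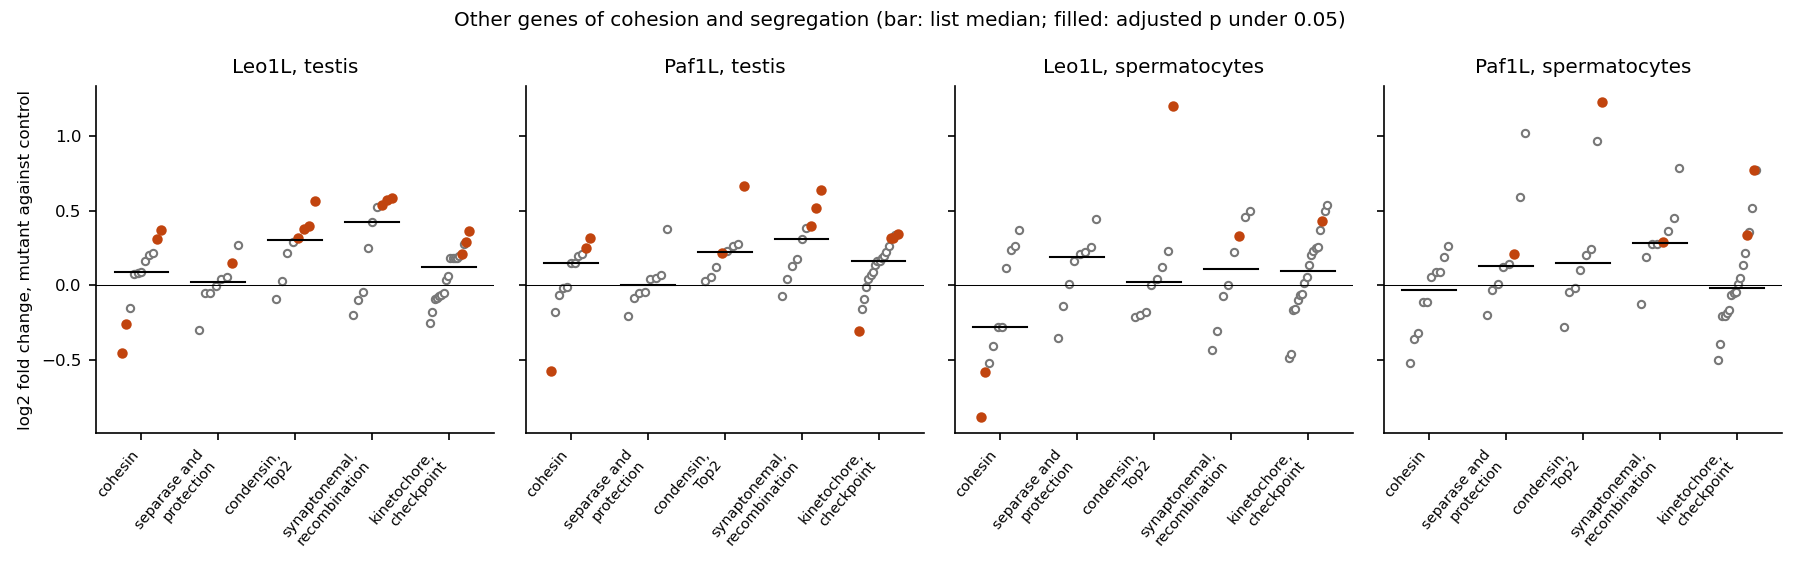
Log2 fold change (y axis, log2(signal + 1) scale) of every tested gene of the 5 lists (x axis) in Leo1L and Paf1L testis and sorted spermatocytes; filled points passed an adjusted p of 0.05 (limma) and bars are list medians. Cap-D3 is the highest filled point in both sorted panels, at 1.20 and 1.23.

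The genes whose levels followed those of the 7 most closely were sought over all 30 libraries and columns, after centring within each table. For uno these were CG45050 (Pearson r = 0.93) and CG2291 (r = 0.93), with r of 0.928 to 0.935 inside the testis table and inside the sorted table. For mei-S332 they were jnj and CG31601 (both r = 0.81), and for ord CG30094 and CG15337 (both 0.76). The best partners of tef (Sec5, 0.69), snm (mip130, 0.76), mod(mdg4) (msi, 0.76) and sunn (Appl, 0.69) had an r of 0.04 to 0.52 within testis and 0.90 to 0.95 within the 9 sorted columns. These are descriptions over libraries that share genotypes and depth, chosen as the best of 9333 genes.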

How the data were processed

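The deposited values are GeTMM signal per gene, which the authors had normalized before deposition, in 1 table for whole testis and 1 for sorted cells. The submitters' processing notes name STAR, Salmon, DESeq2 and edgeR 3.34.0 with the dm6 genome; which step each served, and the strand setting, are not given in the sources used here. Between 53.5% and 86.3% of low values per testis library lay within 0.1 of a whole multiple of a single step (74.5% to 84.6% in sorted columns), too few for a count model. Approximate depth is the library total divided by that step, and 3 reads correspond to a signal of 0.145 to 0.383.

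Genes with a mean signal of at least 1 were tested, 10925 in testis and 9495 in sorted cells, on log2(signal + 1) by limma's moderated linear model with a trended prior (R 4.3.3, limma 3.58.1), a scale that understates changes of low genes. Fits used all libraries of a table, and Benjamini-Hochberg adjustment ran over all tested genes of a comparison. Testis mutants were compared with the equally weighted mean of the stocks. The tables were normalized separately, so tests stayed within a table. The method was tested on simulated data. Positions came from Ensembl 115 (BDGP6.54).

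The genes and lists were chosen with earlier results of these data known. List genes are named where called and at least 0.5 in size on the log2 scale, or among the 2 most abundant of a list with fewer than 2 such genes. Alternatives concerned the pseudocount, the filter, the scaling, library weights, a replicate block, the control stock, marker covariates and single libraries left out.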

Additional observations from a re-analysis of the deposited data

Results flagged for a closer look

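In the 6 testis control libraries, snm had one value apart from the rest: w1118 iso replicate 3, at 30.6, with a gap to its neighbour of 0.750 of the whole range. For mod(mdg4) the value apart was w1118 iso replicate 2, at 62.7, with a gap of 0.684 of the range. Both gaps were above 0.625 of the range, a limit that chance alone passes in about 1 in 20 groups of 6, and 7 genes were examined.

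For tef and ord, the Paf1L libraries lay on opposite sides of their controls in testis and in sorted cells. All testis libraries were above the mean of the controls and all sorted columns below it. The log2 fold change in sorted cells minus that in testis was -0.84 for tef and -0.19 for ord. The difference was not tested, because the tables were normalized separately and the alleles and the GFP tag differ between them.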

How the results depend on the processing

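The number of the 7 genes called was 1 in Cdc73L, Ctr9L, Leo1L and inverted Leo1L testis and in sorted Paf1L cells, and 0 in the others. A minimum log2 fold change of 1 left 0 in each. Against w1118 alone, 0 were called in Cdc73L and in inverted Leo1L, and against w1118 iso alone 0 in Ctr9L. Testing genes with a mean signal of at least 5, which drops tef and sunn, gave 0 in Ctr9L and 2 in inverted Leo1L. Rescaling to one total gave 2 in Leo1L, 2 in inverted Leo1L and 1 in Paf1L. Quantile normalization gave 2 in inverted Leo1L and 2 in sorted Paf1L (uno and tef). Array weights, whose estimation did not converge in one fit, gave 2 in Ctr9L, 2 in inverted Leo1L, 1 in Paf1L and 1 in sorted Leo1L, and reversed mei-S332 in Leo1L testis (-0.015). The cause was not tested.

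Of the settings chosen after seeing the data, the spermatid covariate gave 0 in Cdc73L, 3 in Ctr9L, 2 in Leo1L, 2 in inverted Leo1L and 2 in Paf1L. The accessory gland covariate gave 0 in Cdc73L and 0 in sorted Paf1L, groups in which that level lay below every control. Neither covariate can be separated from the genotype where its level differs between mutant and control. Leaving out the 4 libraries low in accessory gland markers gave 0 in inverted Leo1L. In Cdc73L that fit kept only replicate 3, so no count is given for it. Treating the control stocks as one group changed no count. The share of all tested genes called was not computed under these or the other alternative fits, so the counts from them have no such share beside them.

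With 1 library left out in turn, the counts ran from 0 to 1 in Cdc73L, 0 to 2 in Ctr9L, 1 to 2 in Leo1L, 0 to 2 in inverted Leo1L and 0 to 1 in Paf1L; the fold change of mei-S332 in Leo1L ran from -0.040 to 0.11 and that of uno between w1118 iso and w1118 from -0.0093 to 0.24. Of 1366 fold changes under alternatives 102 changed sign, 0 of them with a call on either side.

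Same-numbered libraries deviated together, with a correlation over 0.1, in 22 of 63 testis pairs and 4 of 9 sorted pairs, so the numbers were not taken to pair the samples. With the replicate number as a block the counts were 1 in the 5 comparisons named first and 0 in the others. In sorted cells 5 of 9 columns correlated best with their own number (median correlation 0.078 for the same number, -0.054 for others), and early germ cell markers were highest in replicate 1 and lowest in replicate 2 of each group, a hint from the data and not from the labels. Depth limits tef and sunn most, with as few as 5.65 and 7.71 reads per sorted column.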
